A study of Mus musculus with 67 samples.

Results

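Chromatin accessibility of p2 neural progenitors (NPs), the ventral spinal cord progenitors that give rise to V2 interneurons, was compared between differentiations exposed to 10 nM and to 100 nM of SAG. The comparison took every sample whose labels name p2 as the sorted type, 18 of 67 samples in the series: 9 at 10 nM and 9 at 100 nM, as 3 replicates at each of days 4, 5 and 6. All came from HM1, a mouse embryonic stem (ES) cell line, differentiated in a dish after removal of feeder cells. The cells were given bFGF, with LGK in the earliest days, then bFGF with CHIR99021, SB-431542 and DMH1, and from day 3 retinoic acid at 100 nM together with SAG. The 2 groups shared all of these agents and differed only in the SAG concentration. Cells were fixed, cut with Tn5 transposase, stained inside the cell and sorted by flow cytometry, a procedure called CaTS-ATAC. The study describes p2 as live SOX2+ cells that express NKX6.1 and PAX6. Its cell types were told apart by combinations of markers. OLIG2 and NKX2.2, the markers of pMN and p3 NPs, were stained as well, since those cells also expressed NKX6.1. The model has 1 ES cell line and no animals, and the study describes its replicates as separate differentiations. The dishes were not pure p2: samples of p0-1 NPs were also sorted at 10 nM, and of pMN and p3 NPs at 100 nM.

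Sonic hedgehog is secreted from the ventral midline and patterns the neural tube by its level and duration. It binds Patched, which frees Smoothened, and the GLI proteins then switch from repressors to activators of transcription; SAG is a small molecule that activates Smoothened directly. From ventral to dorsal the domains are p3, pMN, p2 and then p1 and p0, and the p2 domain expresses NKX6.1, PAX6 and IRX3 and yields V2a and V2b interneurons.

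The question was which elements differ between cells that carry the same p2 markers but received 10-fold different SAG. At a SAG concentration of 100 nM, 18 elements were more and 81 were less accessible by over 2-fold, with the day and replicate number taken into account. The higher elements included neighbours of Nkx2-9, Foxa2 and, at a distance, Ptch1, genes of the most ventral cells and of the Hedgehog response. The lower ones were mostly assigned to genes outside the lists used here. Of the 81, 4 (4.94%) lay within 500000 bases of a proneural, Notch, V2, V1 or neuron gene, at Neurod4, Hey1, Heyl and Lhx5, beside 3.39% of all tested elements. Below the 2-fold limit the Gli1, Ptch1 and Olig2 loci were also higher at 100 nM, by smaller steps.

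The sequences around 2 short motifs are shown because the elements that moved differ in how often they hold them. The first is GACCACCCA, the core letters read by GLI proteins, searched on both strands of the GRCm38 (mm10) reference. It was found anywhere in 6 of the 18 higher elements (33.3%), in 2 of the 81 lower elements (2.47%) and in 583 of the 31831 elements tested (1.83%). In the central 300 bases alone it was in 3 of 18 (16.7%), 0 of 81 and 0.374% of all. The 6 higher elements are printed first, followed by an element near Ptch1 and one near Kif21a described below. Each name is the gene with the nearest annotated start and the distance in bases from that start, the capitals mark 1 copy of the motif, and the strand is the one printed 5′ to 3′.
Nkx2-9 -8166, chr12:56621342-56621430, plus strand: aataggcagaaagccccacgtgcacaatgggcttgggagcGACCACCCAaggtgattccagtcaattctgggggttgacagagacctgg
Gm815 +44656, chr19:26930674-26930762, minus strand: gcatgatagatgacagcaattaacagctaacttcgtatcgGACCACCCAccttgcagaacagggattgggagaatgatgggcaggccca
1700024I08Rik +14345, chr13:63719697-63719785, plus strand: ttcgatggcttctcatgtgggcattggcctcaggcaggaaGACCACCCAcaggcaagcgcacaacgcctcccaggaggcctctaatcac
Gria2 +193624, chr3:80608658-80608746, minus strand: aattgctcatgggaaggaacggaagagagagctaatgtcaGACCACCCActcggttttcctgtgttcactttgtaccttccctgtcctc
1700129C05Rik +274657, chr14:58868278-58868366, plus strand: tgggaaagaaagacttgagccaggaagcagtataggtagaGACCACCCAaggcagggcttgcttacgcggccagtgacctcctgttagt
Fbxl7 +91398, chr15:26804310-26804398, plus strand: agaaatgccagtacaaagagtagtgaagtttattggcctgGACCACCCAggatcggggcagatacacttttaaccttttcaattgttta
Ptch1 -7090, chr13:63573425-63573513, minus strand: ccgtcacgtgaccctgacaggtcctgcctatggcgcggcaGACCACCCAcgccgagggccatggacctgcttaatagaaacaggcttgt
Kif21a -28271, chr15:91078156-91078244, plus strand: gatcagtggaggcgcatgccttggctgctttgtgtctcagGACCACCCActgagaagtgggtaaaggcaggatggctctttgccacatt
The second is CAGATG, one form of the E box read by basic helix-loop-helix factors such as the proneural proteins. It was found in the central 300 bases of 53 of the 81 lower elements (65.4%), 7 of the 18 higher elements (38.9%) and 6207 of all tested (19.5%). The element near Neurod4 is printed first, followed by the 4 of the 10 largest decreases that hold it.
Neurod4 -7948, chr10:130288151-130288236, minus strand: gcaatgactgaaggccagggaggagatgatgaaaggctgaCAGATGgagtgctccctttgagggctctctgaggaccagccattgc
Zfp330 +2024, chr8:82771963-82772048, minus strand: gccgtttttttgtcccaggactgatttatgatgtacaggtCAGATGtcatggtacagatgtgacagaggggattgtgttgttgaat
Mir466f-4 +29243, chr13:71136147-71136232, plus strand: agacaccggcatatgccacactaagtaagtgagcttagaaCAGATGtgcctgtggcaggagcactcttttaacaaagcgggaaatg
4930581F22Rik -276762, chr9:34839800-34839885, minus strand: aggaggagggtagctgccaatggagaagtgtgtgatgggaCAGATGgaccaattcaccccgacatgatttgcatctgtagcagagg
C8b -125424, chr4:104640741-104640826, plus strand: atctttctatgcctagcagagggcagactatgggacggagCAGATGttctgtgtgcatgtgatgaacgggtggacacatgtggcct

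The libraries were deep, with 13485605 to 26303485 reads in elements at 10 nM (median 20254011) and 15318155 to 29985325 at 100 nM (median 20974563). Elements near the starts of Nkx6-1, Pax6, Irx3 and Sox2, 4 defining p2 genes, were accessible in every sample. Their summed normalized count had a lowest, median and highest value of 8007, 9450 and 10695 at 10 nM and 8344, 9193 and 10873 at 100 nM, and 0 of the 4 differed. A normalized count is the number of reads in an element divided by the size factor of its library. Day of differentiation accounted for 77.3% of the variance among the 18 samples, replicate number within a day for 14.1%, SAG for 4.22% and the variation of the SAG effect between days for 1.54%. Replicate 3 of 100 nM at day 6 stood apart, with correlations of 0.935 and 0.944 to the other replicates of its group, which correlated at 0.988. All other pairs within a group correlated at 0.963 to 0.985. The counts led with below are given with and without it.

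An element was tested if its mean normalized count over the 18 samples exceeded 100, which 31831 of 111638 elements did. Of these, 99 (0.311%) passed both limits used here, a Benjamini-Hochberg adjusted p under 0.01 in limma and a change of over 2-fold in normalized counts. The 18 higher at 100 nM were 0.0565% of those tested and the 81 lower were 0.254%. With an adjusted p under 0.05 and no limit on fold, 4938 elements (15.5%) differed, of which 1295 (4.07%) were higher and 3643 (11.4%) lower. The balance depended on the scaling, since the median over all elements was −0.04 on the variance-stabilized (VST) log2 scale. When each sample was centred on its median the split at 2-fold was 28 higher and 50 lower, and after correction for GC content it was 31 higher and 23 lower. At any fold it was 2890 higher (9.08%) and 2845 lower (8.94%) after centring, and 3618 (11.4%) and 3471 (10.9%) after the GC correction. Without replicate 3 of 100 nM at day 6, 16 were higher and 34 lower, of which 13 and 28 were among the 18 and the 81. Low elements entered on 1 side: 9 of the 18 higher elements had a mean above 100 only at 100 nM, and 56 of the 81 lower elements only at 10 nM.

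**Figure D1:**
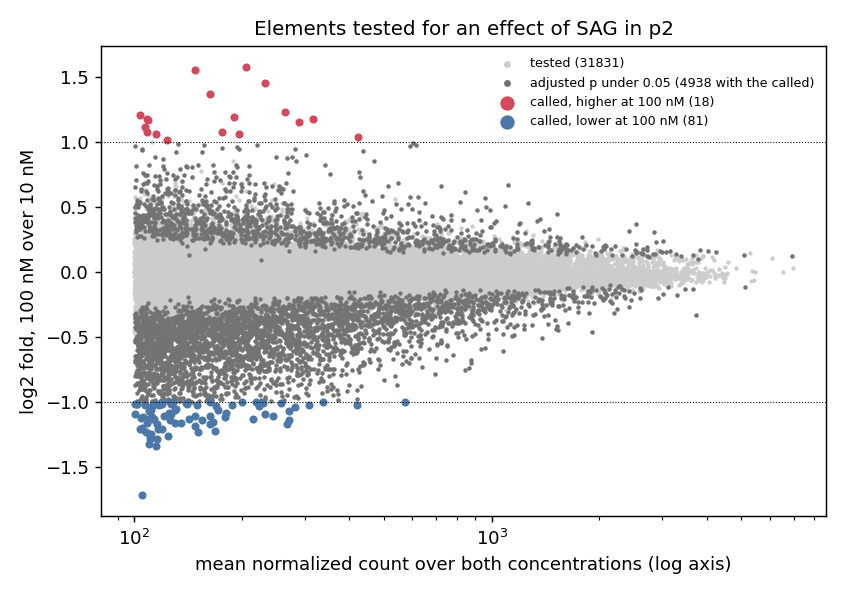
Each point is 1 of the 31831 tested elements, with its mean normalized count on a log x axis and the log2 fold in normalized counts (100 nM against 10 nM) on the y axis. The 18 higher and 81 lower elements are coloured and lie mostly at low counts, with medians of 169 and 127.

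The element with the second largest fold among the higher set lay 8166 bases upstream of Nkx2-9, a homeobox gene of the floor plate and p3 domain (chr12:56621016-56621884, intergenic). At 10 nM its normalized counts were 81.2, 55.5 and 170.1 at day 4, 62.4, 65.3 and 87.3 at day 5, and 40.8, 62.3 and 51.3 at day 6. At 100 nM they were 270.1, 185 and 370.4 at day 4, 158, 186 and 273 at day 5, and 99.2, 135 and 307 at day 6. Each 100 nM sample exceeded every 10 nM sample of its day, although the ranges over all days, 40.8 to 170.1 and 99.2 to 370.4, overlapped. The mean went from 75.1 to 220.4, and the VST difference was 1.41 ± 0.14 (SE), with 9 of 9 same-numbered pairs higher and an adjusted p of 6.48e-06 (limma). The VST difference was near the same size in each day, at 1.40, 1.36 and 1.46. This element holds one of the GLI motifs printed above.

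The promoter of Nkx2-9 itself, 344 bases upstream of the start, rose by less than 2-fold, from a mean of 903 to 1284. It was 1 of 12 tested elements (0.0377%) whose 9 values at 10 nM and 9 values at 100 nM did not overlap, with 810 to 999 at 10 nM and 1020 to 1451 at 100 nM. Its VST difference was 0.50 ± 0.05 (SE), with an adjusted p of 1.24e-05 (limma).

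The element 9968 bases downstream of the start of Foxa2, a forkhead factor of the floor plate that is also expressed early in p3 cells, fell with time at both concentrations (chr2:148036783-148037220, intergenic). Its normalized counts at day 4 were 161, 217 and 414 at 10 nM and 464, 501 and 734 at 100 nM. At day 5 they were 35.3, 33.4 and 56.9 against 77.2, 111 and 206, and at day 6 they were 28.5, 48.7 and 47.1 against 47.5, 76.2 and 165. The groups separated at days 4 and 5, while at day 6 the lowest 100 nM sample lay below the highest at 10 nM. Its VST difference was 1.13 ± 0.12 (SE, adjusted p = 8.78e-06, limma), and its means were 116 and 265. Of the other Foxa2 elements, those at +78227, +25185, +7072 and +1458 were also higher at 100 nM, by VST differences of 0.43 to 0.51, whereas the one at −104372 was lower (−0.42).

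Of the 18 higher elements, 3 lay side by side in the gene 1700024I08Rik, 146493, 152328 and 156598 bases from the body of Ptch1, which encodes the Hedgehog receptor. The one at +4240 (chr13:63729502-63730614, intron) had normalized counts at day 4 of 182, 96.0 and 314 at 10 nM and 478, 327 and 748 at 100 nM. At day 5 they were 62.4, 57.7 and 102 against 149, 212 and 262, and at day 6 they were 69.3, 141 and 94.2 against 181, 212 and 487. The groups were separate within every day. Its mean went from 124 to 340.4, a VST difference of 1.36 ± 0.16 (SE, adjusted p = 1.76e-05, limma). The elements at +14345, which holds the GLI motif printed above, and at +8510 went from 128 to 266 and from 81.9 to 165, again with no overlap within any day.

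The largest fold increase belonged to an intergenic element assigned to Gm815 (chr19:26929894-26931269), whose lowest, median and highest counts were 62.8, 91.7 and 244 at 10 nM and 171, 242 and 593 at 100 nM. Its VST difference was 1.43 ± 0.14 (SE, adjusted p = 6.99e-06, limma). An element in the region of Cobl, which encodes an actin nucleator, went from a mean of 90.8 to 234, and one within Nfia, a factor that rises as NPs mature, from 158 to 371. The remainder of the 10 largest increases were assigned to Gm36536, Zfp277, 1700027A15Rik and Gria2, with log2 folds of 1.16 to 1.21. None of these names shows that the element acts on that gene.

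Of the 18 higher elements, 9 had separate groups in each of the 3 days and all 18 were higher in 9 of 9 pairs. By comparison, 260 of the tested elements (0.817%) separated the same way in each day. As this rests on the samples that made the calls, it describes the calls only. Across days the median VST difference of the 18 was 0.84, 1.03 and 1.29 at days 4, 5 and 6, beside −0.03, −0.05 and −0.03 over all elements.

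**Figure D2:**
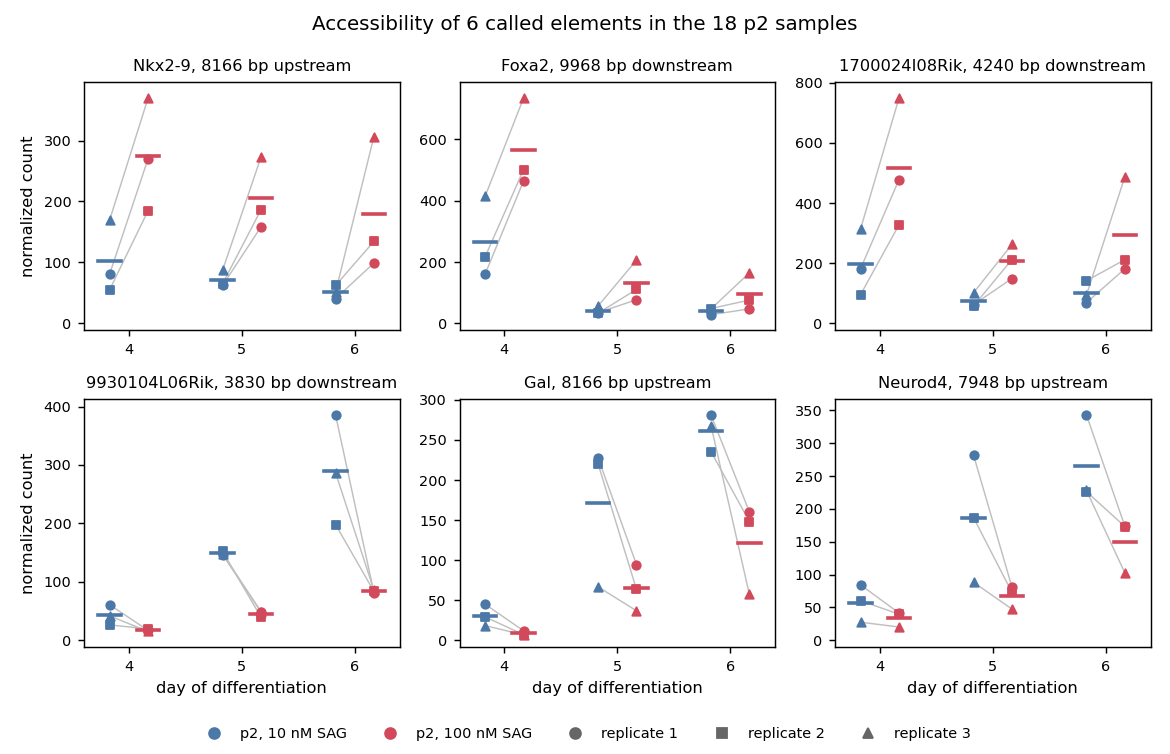
Normalized counts of 6 of the 99 elements by day, with 1 point for each of 3 replicates at 10 nM and at 100 nM, thin lines joining samples of the same replicate number and bars at the means. The Nkx2-9, Foxa2 and 1700024I08Rik elements were higher at 100 nM in all pairs, and the 9930104L06Rik, Gal and Neurod4 elements were lower in all pairs.

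The lower set gained accessibility with time at both concentrations. Its mean VST level at 10 nM was 5.72, 7.66 and 8.45 at days 4, 5 and 6, and at 100 nM it was 5.12, 6.49 and 7.41, a gap that the choice of the elements fixes. The largest decrease was in an intron of 9930104L06Rik (chr4:124940478-124941278). Its counts at 10 nM were 60.7, 26.4 and 41.7 at day 4, 146, 152 and 148 at day 5, and 386, 198 and 287 at day 6. At 100 nM they were 16.9, 19.5 and 15.2, then 48.6, 39.5 and 49.1, then 81.4, 83.5 and 85.7. The groups were separate within every day, and the VST difference was −1.33 ± 0.13 (SE, adjusted p = 6.99e-06, limma). In the other cell types its median was 109 in NMPs, 136 and 168 in p0-1, 60.1 and 35.5 in pMN at 100 and 500 nM, and 8.5 and 8.7 in p3.

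Neurod4, a proneural factor of committed neuronal precursors, had an element 7948 bases upstream that was lower at 100 nM (chr10:130287662-130288743, intergenic). Its counts were 84.4, 60.2 and 27.5 at 10 nM against 41.5, 39.8 and 20.3 at 100 nM at day 4. At day 5 they were 282, 187 and 88.3 against 81.2, 73.0 and 47.5, and at day 6 they were 343, 226 and 228 against 174, 173 and 103. Every same-numbered pair was lower, but the groups overlapped at day 4 and, at day 5, separated by a narrow margin. The VST difference was −0.85 ± 0.12 (SE), with an adjusted p of 1.37e-04 (limma). The element nearer to the gene, at −1886, went from a mean of 1299 to 849 (VST difference −0.64 ± 0.08, SE).

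Further members of the lower set lay near Hey1 (149 to 70.6) and in Heyl (147 to 63.8), which encode effectors of Notch. The Hey1 and Heyl elements were lower in 8 of 9 pairs. Others lay near Lhx5 (173 to 80.9), a factor of dorsal and V0 to V1 interneurons, 404997 bases from the start of Irx1 (180 to 80.3), a homeobox gene of the intermediate neural tube, and 558315 bases from that of Isl1 (171 to 85.3), a motor neuron factor. The element near Gal, which encodes the neuropeptide galanin, had means of 155 and 65.1. The other largest decreases were assigned to Zfp330, Mir466f-4, Prr30, Mdfi, Ccdc121, Chit1, 4930581F22Rik and C8b, with log2 folds of −1.34 to −1.23. Of the 81, 69 were lower in 9 of 9 pairs and 11 had separate groups in all 3 days, 18, 40 and 75 of them being separate at days 4, 5 and 6.

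In these sorted bulk samples, a change in the share of cells of a type and a change in accessibility per cell cannot be told apart. Elements near 6 neuronal genes had summed counts with a lowest, median and highest value of 3605, 5861 and 7274 at 10 nM and 3334, 4232 and 6513 at 100 nM, and 1 of the 6, at Tubb3, was lower. Those of 3 pMN genes were 2614, 3196 and 3898 against 3144, 3683 and 4414, with 2 of 3 higher (Olig1 and Olig2). The 2 p3 marker elements tested, at Nkx2-9 and Foxa2, were both higher and summed to 1097, 1207 and 1787 against 1632, 1699 and 2385. Nkx2-2, whose protein marks p3 in the study, is not part of this sum, so it does not cover all p3 markers. Of 4 p0-1 marker elements, 1 was lower (Dbx1), and the sums were 4416, 4982 and 5296 against 4020, 4473 and 4824. Of 3 mesoderm marker elements 1 was higher (Meox1; sums of 1163, 1374 and 1676 against 1260, 1622 and 1818), and 0 of 3 NMP marker elements differed. The part of these in the results was not tested. Pou5f1, Nanog and Col3a1, markers of ES cells and of fibroblasts, had elements with normalized counts of 33 to 95, 11 to 43 and 12 to 32 at 10 nM, under the filter. The fourth marker of this kind, Col1a1, passed the filter, with 263 to 386 at 10 nM and 316 to 459 at 100 nM, a VST difference of 0.19 and an adjusted p of 0.053 (limma).

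Hedgehog target elements changed by less than 2-fold over days in the deposited scaling, and 1 exceeded it after centring or GC correction. Of 14 tested elements of target and feedback genes, out of 40 in the table, 5 were higher and 0 lower at 100 nM, with a median VST difference of 0.20. Over all tested elements 4.07% were higher and 11.4% lower. The element in an intron of Gli1, a transcription factor and direct target of the pathway, had counts at day 4 of 2307, 2501 and 3067 at 10 nM and 3050, 2885 and 3754 at 100 nM (+837, chr10:127338779-127342705). At day 5 they were 2351, 2375 and 2854 against 3087, 3051 and 3194, and at day 6 they were 2411, 2690 and 2349 against 2856, 3286 and 3140. All 9 pairs were higher at 100 nM, with an overlap between the groups at day 4 alone. The VST difference was 0.31 ± 0.05 (SE, adjusted p = 2.47e-04, limma), or 2545 to 3145 in mean counts.

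The Ptch1 element at −7090 (chr13:63571708-63573943), whose GLI motif is printed above, had counts at day 4 of 479, 527 and 898 at 10 nM and 812, 869 and 1376 at 100 nM. At day 5 they were 571, 536 and 580 against 787, 814 and 797, and at day 6 they were 796, 825 and 774 against 1032, 1077 and 1133. The groups were separate at days 5 and 6 and overlapped at day 4. The mean rose from 665 to 966, a VST difference of 0.54 ± 0.09 (SE, adjusted p = 3.42e-04, limma). Downstream of the start the element at +58841 had a larger VST difference of 0.81, from a mean of 301 to 573, with 1.34, 0.67 and 0.41 at days 4, 5 and 6, and it exceeded 2-fold at day 4 (309 to 843), and those at +36282 and +24094 differed by 0.33 and 0.37. The element at +66664 did not pass over days (0.37, adjusted p = 0.051) but differed between days, with VST differences of 0.90, 0.20 and 0.00. At day 4 its counts were 312, 240.2 and 389 against 604, 466 and 719, whereas at day 6 they were 429, 380 and 327 against 374, 377 and 381. The elements of Hhip, which encodes a membrane antagonist of the ligand, had VST differences of −0.14 at +20101, 0.06 at +1705 and 0.01 at −119079, and 0 of the 3 passed.

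Upstream in the pathway, 20 elements of receptors and co-receptors were tested of 36. Of these, 1 (5%) was higher and 4 (20%) lower, with a median of −0.09, beside 4.07% and 11.4% over all tested elements. Gas1, a co-receptor that is repressed by the pathway in the neural tube, accounted for 3 of the lower elements, with VST differences of −0.49 at +30347 (826 to 624), −0.40 at +53012 and −0.23 at +5717. The fourth was at −72500 from Cdon, another co-receptor, at −0.52 (260.3 to 174). The higher one was Smo −16906, at 0.28 (90.3 to 116, adjusted p = 0.036, limma). Of 26 tested transducer elements of 74, 1 at Evc2, a ciliary protein, was higher (0.43) and 1 far from Gli3 was lower (−0.29). Of 26 tested ligand and release elements of 85, 5 (19.2%) were lower and 0 higher. They lay at Hhat (3 elements, −0.85, −0.61 and −0.33), Disp1 (−0.28) and Scube2 (−0.30).

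**Figure D3:**
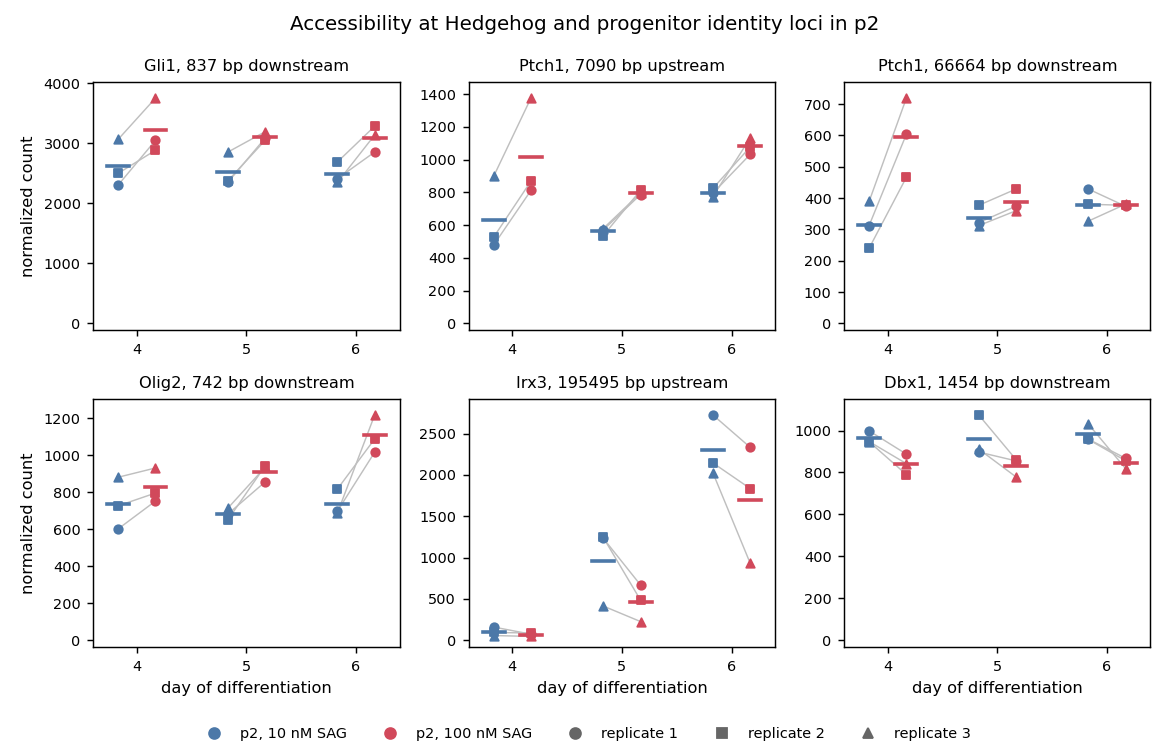
Normalized counts at 6 elements of Hedgehog pathway and progenitor identity genes, drawn as for the 6 elements above: days on the x axis, 1 point per sample at 10 nM and at 100 nM, bars at the means. The Gli1, Ptch1 −7090 and Olig2 elements were higher and the Irx3 and Dbx1 elements lower at 100 nM, while Ptch1 +66664 differed at day 4 and not at day 6.

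Among the identity genes of the p2 domain and the domains ventral to it, 56 of 147 elements were tested. At 100 nM 16 (28.6%) were higher and 6 (10.7%) lower, with a median of 0.07, beside 4.07% and 11.4% over all tested elements. Olig2 +742, at the gene for the determinant of motor neuron progenitors, had counts of 602, 726 and 881 against 752, 795 and 931 at day 4, 681, 650.4 and 713 against 855, 942 and 935 at day 5, and 698, 817 and 688 against 1016, 1088 and 1217 at day 6. The groups overlapped at day 4 and were separate at days 5 and 6. The VST difference was 0.39 ± 0.07 (SE, adjusted p = 5.09e-04, limma). Olig2 −57706 (0.45) and 3 elements of Olig1 (0.26 to 0.42) were also higher. Across cell types the median count of Olig2 +742 was 367 and 444 in p0-1 at 0 and 10 nM, 698 and 935 in p2, 1850 and 1959 in pMN at 100 and 500 nM, and 951 and 915 in p3. The p2 samples at 100 nM thus lay well under the pMN samples of the same dish.

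Nkx6-1, whose protein was used for the sort, had 2 higher elements (+367191 at 0.24 and +341398 at 0.39) and 3 lower (−0.28, −0.35 and −0.42), and its nearest element to the start did not pass. Both higher elements of Nkx6-2, a related repressor, had VST differences of 0.21 and 0.22. Olig3, known mainly from dorsal progenitors, had 2 lower elements (−0.56 and −0.85).

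For genes of the intermediate and dorsal tube, 99 of 250 elements were tested. Of these, 25 (25.3%) were lower and 0 higher, with a median of −0.12, beside 11.4% lower and 4.07% higher over all tested elements. Dbx1 +1454, at a gene of p0 and p1 progenitors, changed little but evenly. Its counts were 998, 947 and 947 against 888, 790.1 and 842 at day 4, 897, 1074 and 911 against 855, 862 and 779 at day 5, and 959, 957 and 1031 against 868, 856 and 818 at day 6. It was another of the 12 elements without overlap, since the highest 100 nM sample lay under the lowest 10 nM sample, and the VST difference was −0.20 ± 0.05 (SE, adjusted p = 4.54e-03, limma). The p0-1 medians of this element were 2069 and 2140. Dbx1 −51622 differed by −0.65, and Dbx2 +14834 by −0.45 (788 to 576). For Pax3, a dorsal gene, 3 elements differed by −0.48 to −0.54, and that at +56450 was among the 12 without overlap as well (613 to 904 at 10 nM, 444 to 602 at 100 nM).

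Irx3 −195495, assigned to a gene that restrains motor neuron identity and marks p2, had counts of 160.1, 94.1 and 57.5 against 73.7, 88.5 and 46.4 at day 4. At day 5 they were 1233, 1243 and 414 against 668, 485 and 226, and at day 6 they were 2725, 2145 and 2025 against 2333, 1835 and 933. The groups overlapped at every day, so the call rests on the pairs, all 9 of which were lower, with a VST difference of −0.66 ± 0.13 (SE, adjusted p = 1.29e-03, limma). The rise between days was far larger than the SAG effect. Pax6 +22888 was lower as well (143 to 102), and other lower elements lay at Pax7, Sp8, Msx1, Irx1, Irx2, Gsx1 and Gsx2.

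Most elements of neurogenesis genes did not pass, and those that did were lower at 100 nM. Of 85 tested proneural and Notch elements of 158, 28 (32.9%) were lower and 0 higher (median −0.12). Of 32 motor neuron and neuron elements of 79, 12 (37.5%) were lower and 0 higher (median −0.17). Over all tested elements 11.4% were lower and 4.07% higher (median −0.04). The Dll1 promoter, at the gene for the Notch ligand of nascent neurons, went from 2081 to 1666 (VST difference −0.31 ± 0.06, SE), and 4 more Dll1 elements were lower. Notch1 +16359 went from 1764 to 1294. Lower elements also lay at Neurod1, Neurog1, Dll3, Dll4, Jag1 and Hes6. Among neuron genes, Elavl3 +16078 went from 380.1 to 194 (VST difference −0.93 ± 0.12, SE), and Tubb3 from 1743 to 1307 (−0.40 ± 0.11, SE). These lists were drawn up with earlier results of the same data known, so their counts describe the data and are not independent evidence.

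For the lineages that leave the p2 and p1 domains, 58 of 147 elements were tested. Of these, 11 (19.0%) were lower and 0 higher, with a median of −0.09. Over all tested elements 11.4% were lower and 4.07% higher, with a median of −0.04. The lean to lower values was thus partly shared by all elements, and its size depended on the scaling. Foxn4, which starts the V2 program in p2 progenitors, had 2 lower elements. That at −5852 went from 445 to 255 (−0.84 ± 0.12, SE) and that at +9631 from 499 to 321 (−0.67 ± 0.12, SE). Lower elements were also found at Lhx3 and Lhx4 (LIM factors of V2a and motor neurons), Vsx1 (V2), En1 (V1), Lhx5 and Foxd3 (802 to 569). The 2 Lhx3 elements are in the neuron list as well.

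Without replicate 3 of 100 nM at day 6 the lists had similar counts. Hedgehog targets had 6 higher of 16 tested, ventral identity 16 higher and 7 lower of 57, and the intermediate and dorsal list 26 lower of 99. Proneural and Notch elements had 29 lower and 1 higher of 85, neuron elements 12 lower of 32, and V2 and V1 elements 10 lower of 58. After centring, Hedgehog targets had 7 higher of 14 and ventral identity 19 higher and 4 lower, and the intermediate and dorsal list 2 higher and 24 lower. Proneural and Notch elements had 3 higher and 26 lower, neuron elements 1 and 11, and V2 and V1 elements 1 and 9. After the GC correction the counts in the same order were 9 and 0, 20 and 7, 1 and 26, 2 and 26, 2 and 12, and 2 and 12. Over all tested elements, 4.25% were higher and 11.2% lower without that library. After centring these shares were 9.08% and 8.94%, and after the GC correction 11.4% and 10.9%. The share of higher elements thus rose over all elements too with either scaling.

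**Figure D4:**
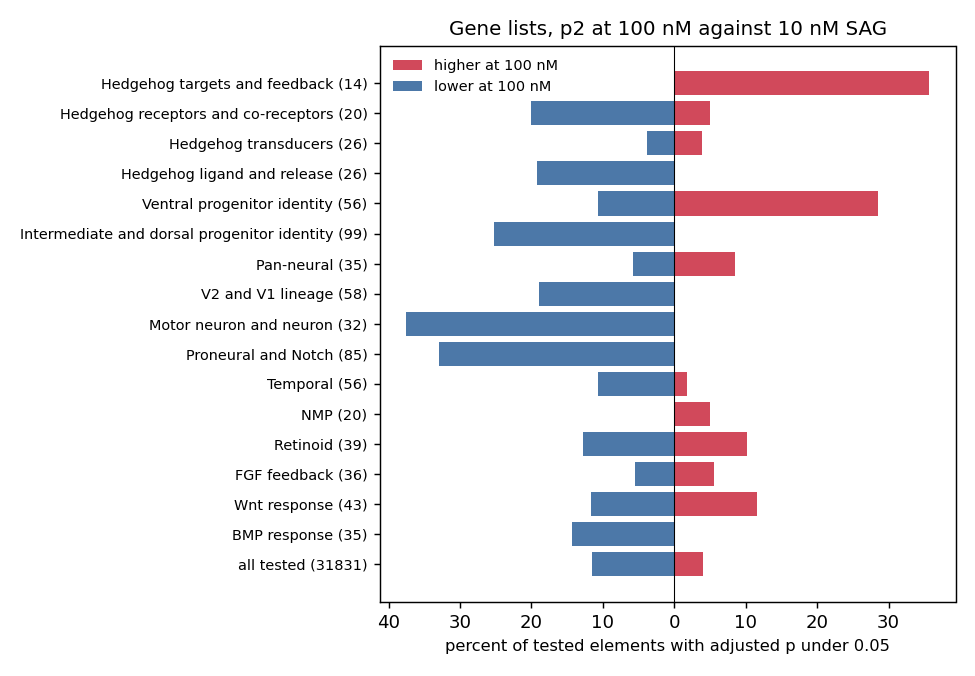
Percent of tested elements of each gene list that were higher (right) or lower (left) at 100 nM with an adjusted p under 0.05, beside all tested elements (4.07% higher, 11.4% lower). Most elements of each list did not pass. Those of the Hedgehog target list that did were all higher (5 of 14), ventral identity had 16 higher and 6 lower of 56, and the proneural, neuron, V2 and V1 and dorsal lists had lower elements and 0 higher.

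Other signaling lists showed smaller numbers, beside 4.07% higher and 11.4% lower over all tested elements. The lower shares of the retinoid (12.8%), BMP response (14.3%) and temporal (10.7%) lists were near the 11.4%. Of 39 retinoid elements 4 were higher and 5 lower. Rara, a retinoic acid receptor, had 3 of the higher ones, with Rara +16416 at 0.43 and Rara +4446 at 0.39. Cyp26b1, which encodes a retinoic acid degrading enzyme, had 3 of the lower ones (−0.84, −0.60 and −0.51), and Dhrs3, a retinaldehyde reductase, had 2 (−0.74 and −0.33). FGF feedback genes had 2 higher and 2 lower of 36, Wnt response genes 5 and 5 of 43, BMP response genes 0 and 5 of 35, temporal genes 1 and 6 of 56, pan-neural genes 3 and 2 of 35, and NMP genes 1 and 0 of 20.

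The 18 higher elements were followed in samples that the comparison did not use. Between p0-1 NPs at 0 nM and pMN NPs at 500 nM, 3584 of 31470 elements (11.4%) differed by over 2-fold, 2206 of them higher in pMN and 1378 in p0-1. All 18 were among those higher in pMN, beside 6.76% of the elements tested in both comparisons. Their mean VST levels were 5.75 to 5.95 in p0-1 at 0 nM and 8.69 to 8.90 in pMN at 500 nM. An element of the 18 could thus pass the filter there through its level in pMN. The count of 18 therefore describes these elements and is not independent evidence. Of the 81 lower elements only 19 were tested there, and 11 of these (57.9%) were higher in pMN and 2 higher in p0-1. The lower set had mean VST levels of 5.04 to 6.33 in p0-1 at 0 nM and 5.33 to 7.42 in pMN at 500 nM. An element of it could thus pass the filter through its level in pMN, and these 19 do not stand for the 81. The mean VST level of the 18 higher elements was 5.17 in NMPs and 5.75 to 6.27 in p0-1. It was 7.02, 6.58 and 6.54 in p2 at 10 nM and 7.93, 7.65 and 7.82 in p2 at 100 nM. In pMN it was 8.31 to 8.49 at 100 nM and 8.69 to 8.90 at 500 nM, and in p3 it was 8.43 to 8.58 and 8.16 to 8.95. The gap between the p2 groups is what chose the elements. For Nkx2-9 −8166 the medians were 4.8 in NMPs, 13.1 and 25.4 in p0-1, 62.4 and 186 in p2, 447 and 742 in pMN, and 446 and 578 in p3. The p2 samples at 100 nM lay between p2 at 10 nM and pMN at 100 nM.

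**Figure D5:**
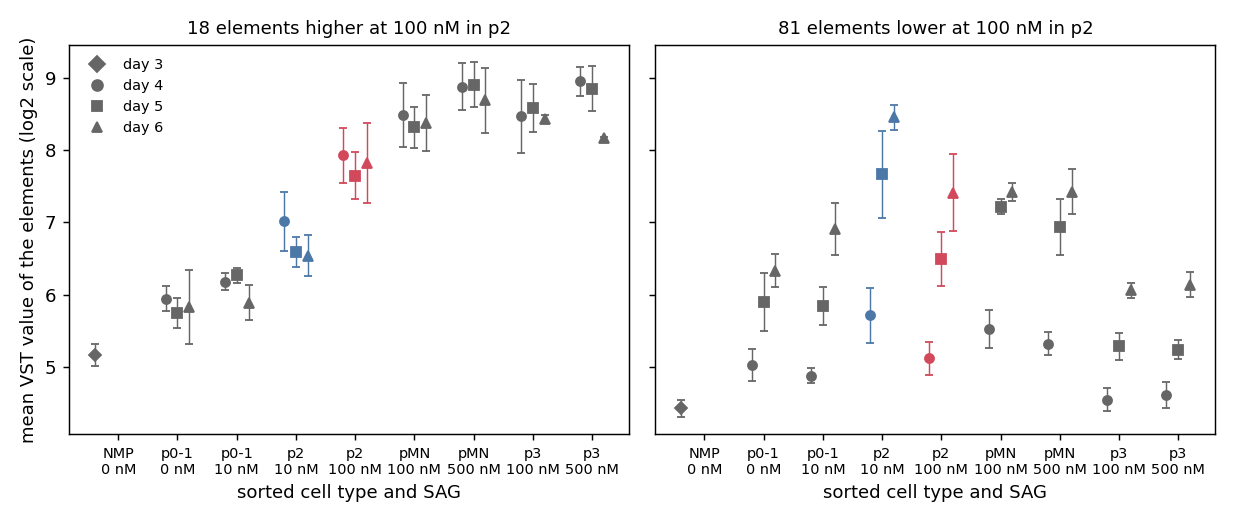
Mean VST level (log2 scale) of the 18 higher and the 81 lower elements in each cell type, SAG concentration and day, with points for group means and bars for the SD over samples. The higher set goes from 5.17 in NMPs to as much as 8.90 in pMN and 8.95 in p3 at 500 nM, with p2 between. The lower set goes up with day, reaching 8.45 in p2 at 10 nM at day 6.

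Elements ordered along the dorsal to ventral axis in other samples moved in both directions with SAG within p2. Those higher in pMN than in p0-1 were more often lower than higher at 100 nM. Over all tested elements 4.07% were higher and 11.4% lower, with a median of −0.04. Of 2017 tested elements that were higher in pMN at 500 nM than in p0-1 at 0 nM, 296 (14.7%) were higher and 646 (32.0%) lower in p2 at 100 nM, with a median of −0.09. Of 1023 elements higher in p0-1, 1 was higher and 208 (20.3%) lower, with a median of −0.18. Between pMN and p3 NPs at 500 nM, 5405 of 31989 elements (16.9%) differed, 2128 higher in p3 and 3277 higher in pMN. The 721 p3-high elements tested in p2 had 107 higher (14.8%) and 16 lower, with a median of 0.12. Without replicate 3 of 100 nM at day 6 they had 83 higher and 35 lower of 667 and a median of 0.01, so this median rests on that library. Of 40 elements higher in p3 than in pMN and in pMN than in p0-1, 24 (60%) were higher and 0 lower, with a median of 0.47, and 20 of 38 with a median of 0.38 without that library. Of 3115 elements higher in pMN than in p3, 1101 (35.3%) were lower and 110 higher. After the GC correction the elements higher in pMN than in p0-1 had 507 higher (25.1%) and 583 lower (28.9%) with a median of −0.02, and the p3-high elements had 198 higher (27.5%) and 9 lower. After centring these were 371 and 560, and 123 and 7. The shares over all tested elements were then 11.4% higher and 10.9% lower after the GC correction, and 9.08% and 8.94% after centring.

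The same 10 nM and 100 nM dishes allow SAG effects to be set beside differences between cell types. At 10 nM, p0-1 and p2 differed in 1131 of 31601 elements (3.58%), 1117 of them higher in p2. At 100 nM, p2 and pMN differed in 438 of 31649 (1.38%), 385 of them higher in pMN. The 0.311% that differed between the p2 groups at the same limits was smaller than either. These comparisons share p2 samples with the one described here.

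The SAG effect in p2 was set beside the steps available in the neighbouring types, p0-1 between 0 nM (8 samples) and 10 nM (9) and pMN between 100 nM (8) and 500 nM (7). The effect in p2 differed from that in p0-1 at 1945 of 31425 elements (6.19%) and from that in pMN at 114 of 31880 (0.358%), by a test of the difference with an adjusted p under 0.05. Gli1 +837 differed from both: its VST difference was 1.14 for the p0-1 step, 0.31 for the p2 step and 0.00 for the pMN step (adjusted p = 0.0001 and 0.043, limma). Its medians were 1030 and 2424 in p0-1, 2411 and 3087 in p2, and 3215 and 3352 in pMN. For Ptch1 −7090 the same steps were 0.66, 0.54 and 0.16, and for Ptch1 +58841 they were 0.81, 0.81 and 0.30, and neither difference passed. The concentrations of the 3 steps differ, so the values do not compare the types at a matched dose.

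Taken day by day, 73 elements (0.229%) passed at day 4, 13 higher and 60 lower; 447 (1.4%) at day 5, 25 higher and 422 lower; and 181 (0.569%) at day 6, 118 higher and 63 lower. Days 5 and 6 shared 19 higher and 45 lower elements, days 4 and 5 shared 6 and 14, days 4 and 6 shared 8 and 3, and 0 were called in opposite directions. Without replicate 3 of 100 nM the day 6 count was 58 higher and 119 lower. The turn of the day 6 balance therefore rests on that library. The counts of single days rest on single libraries too: day 4 fell to 0 without replicate 1 of either concentration, and day 5 to 2 without replicate 1 or 2 of either. The SAG effect itself differed between days at 123 elements (0.386%, adjusted p under 0.05), and 0 of these were among the 99. That count is unstable, since it was 1948 without replicate 3 of 100 nM at day 6, 1922 without replicate 3 of 10 nM at day 6, and 0 without replicate 1 or 3 of either concentration at day 4 or replicate 1 or 2 of either at day 5.

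The strongest of these were Kif21a −28271 (chr15:91077609-91078836), near a kinesin gene and with a GLI motif printed above, and Meis1 +37061, in a homeobox gene of neural and limb patterning. Kif21a −28271 had counts of 881, 775 and 1004 against 946, 778 and 1080 at day 4, 531, 504 and 779 against 765, 746 and 968 at day 5, and 304, 381 and 501 against 631, 648 and 956 at day 6. It fell with time at 10 nM and far less at 100 nM, with VST differences of 0.07, 0.46 and 0.89. Meis1 +37061 had 771, 419 and 585 against 552, 380 and 461 at day 4, and 1454, 1230.2 and 1304 against 2335, 2088 and 1645 at day 6. Its VST differences were −0.31, 0.17 and 0.59, with overlapping groups at day 4 and separate ones at day 6. Ptch1 +66664 was the third, with the opposite course. The adjusted p of each was 0.023 (limma).

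The 2 sets of elements differed in sequence and position as well as in direction. Of the 583 tested elements with the GLI motif, 15.3% were higher and 6.35% lower at 100 nM, beside 4.07% and 11.4% of all tested elements. TGTTTAC, the letters read by forkhead factors, was found in the central 300 bases of 6 of the 18 higher (33.3%), 3 of the 81 lower (3.7%) and 3.11% of all elements, among them Cobl −64134 and 1700024I08Rik +4240. Of all 990 elements with TGTTTAC, 6.46% were higher and 12.3% lower, near the shares of all tested elements. Of the 6207 elements with CAGATG, 3.25% were higher and 23.9% lower, and of the 1359 that also hold CAGCTG, another E box, 33.6% were lower. CAGCTG was present in 48.1% of the lower, 27.8% of the higher and 19.6% of all elements. A match is a description of the letters and not of binding. The sets held few promoters, 0 of 18 and 2 of 81 beside 21.7% of all elements, and had median GC contents of 46.4% and 48.5% beside 52.4%. Within 500000 bases of a ventral identity or Hedgehog target gene lay 5 of the 18 higher and 0 of the 81 lower elements, beside 1.03% of all tested. For proneural, Notch, V2, V1 and neuron genes the counts were 0 of 18 and 4 of 81 (4.94%), beside 3.39% of all tested.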

How the data were processed

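CaTS-ATAC libraries of sorted NPs were processed by the authors with a standard ATAC-seq workflow on the mouse mm10 build: peaks were called with MACS, merged into consensus elements, counted per element and normalized with DESeq2. The deposited values are variance-stabilized (VST) values, on a log2 scale, of 111638 elements in 67 samples, with an annotation table that gives the position and nearest gene start of each element.

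The VST was inverted to normalized counts in its closed form. All values then gave whole reads after multiplying by the size factor (100% within a tolerance of 0.01). The main test was limma 3.58.1 in R 4.3.3 on the deposited VST values, with SAG, day and replicate number as terms and an intensity trend in the variance. Benjamini-Hochberg adjusted p-values were taken over all 31831 that passed the filter, a mean normalized count above 100 over the 18 samples. Calls required an adjusted p under 0.01 and a fold above 2 in normalized counts, or an adjusted p under 0.05 for lists and differences between effects. VST differences understate the change of low elements. Elements under the filter were not tested. Replicate numbers come from the sample titles. Same-numbered samples deviated together within days (correlation 0.451 to 0.831, median 0.727, 9 pairs). Samples with different numbers ran from −0.715 to 0.513, with a median of −0.481 (18 pairs). Deviations from a group mean cancel out, so high same-number values force the others down and this negative median is not separate evidence. At day 6, replicate 1 at 10 nM and 2 at 100 nM reached 0.513, above the 0.451 of the pair numbered 2. The numbers were taken to pair the samples, and the counts with no replicate block are given below. The GEO labels do not say that replicates were separate cultures, and p-values then measure the spread between these samples.

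The members, gene lists, motifs and tests were chosen with earlier results of these data known. The named elements were the 10 largest increases and decreases among the called elements, for each Hedgehog target, receptor and transducer gene and 11 identity genes the element nearest the start and that with the smallest p, and the 3 elements with the smallest p for a difference between days. Other elements named were chosen after their values were seen. A few elements covered by the rule or the lists are not reported here. On simulated counts for 31831 elements of the 10 nM against 100 nM comparison, 200 of 200 changed elements were recovered at 2.5-fold and at 4-fold. The simulated counts had a dispersion of 0.02, equal means within each pair for unchanged elements and no library that stood apart. This recovery checks the code and does not describe the spread of these data. Sequences were read from the GRCm38 reference. Alternatives were another filter, fold limit, threshold, block, trend, centring, GC correction, voom on the recovered reads, single days and leaving out each library.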

Additional observations from a re-analysis of the deposited data

Results flagged for a closer look

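The effect of SAG in p2 differed between days at 123 elements, by a test of the difference itself with an adjusted p under 0.05 (limma). Their median VST differences were −0.34, 0.05 and 0.43 at days 4, 5 and 6, and 104 of them had opposite signs at days 4 and 6. Without replicate 3 of 100 nM at day 6 the count was 1948, and it was 0 without any of 8 other libraries of days 4 and 5.

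The SAG effect in p2 differed from that of the p0-1 step, 0 to 10 nM, at 7 elements of the Hedgehog lists, by a test of the difference in 1 fit. The Hedgehog lists had 14, 20, 26 and 26 tested elements in p2, and 6.19% of all elements differed from the p0-1 step. Whether the 7 exceed that share was not tested. The 7 were 2 elements of Hhat, 2 of Cdon, and 1 each of Gli1, Gli3 and Scube2. Cdon −79525 had a VST difference of −0.07 in p2 and −1.58 in p0-1, and Gli3 +139823 had 0.22 and −0.46. With centred samples 6 of the 7 passed.

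The SAG effect in p2 differed from that of the pMN step, 100 to 500 nM, at 1 element of those lists, Gli1 +837, with 0.31 in p2 and 0.00 in pMN. Of all elements, 0.358% differed from the pMN step.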

How the results depend on the processing

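None of the 38 elements that were named by rule and passed over days reversed its direction under these alternatives. The count of 99 elements was 100 with the 0.05 threshold, 78 after centring, 100 with voom and 99 without a variance trend. It was 1199 with a fold limit of 1.5, 32 with a VST difference over 1, 1262 with no filter, 823 with a filter at 20, and 54 with a GC correction, alone or with replicate number nested in day. It was 39 with day 4 alone, 522 with day 5 alone and 0 with day 6 alone. With no replicate block it was 39, all among the 99, and the day counts were 0, 1 and 4. Leaving out 1 library gave 50 to 259: 56 and 246 without replicates 1 and 3 of 10 nM at day 5, 177 without replicate 1 of 100 nM at day 5, 58 without replicate 1 of 10 nM at day 6, and 259, 175 and 50 without replicates 1, 2 and 3 of 100 nM at day 6.

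At any fold, 4938 became 1644 with no replicate block, 7989 with the block nested in day, 9237 with GC correction as well, 15148 with no filter, 13427 with a filter at 20, 2633 with day 4 alone, 1 with day 6 alone, 2161 without replicate 1 and 3697 to 5780 without 1 library. The 123 elements that differed between days became 0 with no replicate block, 1 with no trend, 57 with GC correction, 260 with centring, 71 with voom and 0 to 1948 without 1 library (1948 without replicate 3 of 100 nM at day 6). Day 4 counts ran from 0 (without replicate 1 of either concentration) to 215, with 7 and 4 without replicate 3 of 10 and of 100 nM, and were 30 with GC correction. Day 5 counts ran from 2 (without replicate 1 or 2 of either concentration) to 456, with 186 without replicate 3 of 100 nM, and were 281 with GC correction. Day 6 counts ran from 85 (without replicate 1 of 10 nM) to 322 (without replicate 2 of 100 nM). Over the 38 named elements called, 1108 of 1201 values kept their call and 93 lost it, most often Gli3 −355573 (19) and Smo −16906 (12). The causes were not tested.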
